A study of Mus musculus with 32 samples.

Results

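A set of 9 genes that set the electrical behaviour of heart muscle were followed across 32 mouse hearts: 5 pore-forming potassium channel genes of the surface membrane that pass current in or out during the action potential (Kcnj2, Kcnd2, Kcnq1, Kcnh2 and Kcna5), the pore of the ATP-sensitive potassium channel (Kcnj11), a potassium channel partner (Kcnip2), the pacemaker channel gene Hcn4 and the gap junction gene Gja1. They were chosen by name, as the 9 of 19505 genes on the array with these symbols, each with 1 probe set. No sodium channel pore or partner is among them, and sodium channel genes are described beside them from a separate list.

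Heart muscle cells fire when sodium and calcium enter and return to rest when potassium leaves. Inward rectifiers hold the resting potential, transient outward and ultrarapid channels shape early repolarization, and delayed rectifiers end the action potential. Mice rely on the transient outward and ultrarapid currents far more than large mammals do, and gap junctions built from connexins carry the impulse from cell to cell.

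The hearts came from mice with a dominant CHCHD10 mutation or from wild-type (WT) mice. CHCHD10, called C10 here, lies between the membranes of mitochondria, and OMA1 is a protease of their inner membrane that stress activates. The first cohort was 14 weeks old and held C10 G58R OMA1+/-, C10 G58R OMA1-/-, C10 WT OMA1+/- and C10 WT OMA1-/- hearts, and the other was 20 weeks old and held C10 S59L OMA1+/-, C10 S59L OMA1-/-, C10 WT OMA1+/- and C10 WT OMA1-/- hearts, with 4 animals in each of the 8 groups and no treatment. Every animal lacked at least 1 working copy of OMA1, so no heart with both copies was measured. The mutations and the OMA1 loss were carried in the germline and so were not restricted to heart muscle. The groups held males and females, with 3 males of 4 in the C10 WT OMA1-/- group and 3 females of 4 in the C10 G58R OMA1+/- group at 14 weeks and an even split elsewhere. Most C10 G58R OMA1-/- mice die soon after birth according to the study, so the adult hearts of that genotype came from survivors. Mutation and age cannot be told apart between the cohorts.

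Values are log2 SST-RMA signals, on which 1 unit is a doubling. Probes of 1410 odorant and vomeronasal receptor genes, which serve smell, set a background of 6.59 (the 95th percentile of their means). A gene with all 4 values of a group below it has only a bound in that group. Differences were fitted with limma within each cohort of 16 arrays, and a gene was called at an adjusted p below 0.05 over 19505 genes. Array medians lay between 6.54 and 6.75. Oma1 averaged 9.997 in C10 G58R OMA1-/- hearts against 10.42 in C10 G58R OMA1+/- hearts, 9.40 in C10 WT OMA1-/- against 10.29 in C10 WT OMA1+/- hearts at 14 weeks, 9.22 in C10 S59L OMA1-/- against 9.78 in C10 S59L OMA1+/- hearts and 9.08 in C10 WT OMA1-/- against 9.76 in C10 WT OMA1+/- hearts at 20 weeks. None of these 4 differences was called (limma adjusted p = 0.175 to 0.804), and whether the probes lie in the deleted part is not known here. The tissue matched its label, with cardiomyocyte markers averaging 16.02 to 17.80 in every heart. Markers of several cell types moved in the comparisons that hold most of the channel calls. Cardiomyocyte markers were called lower for 5 of 12 genes for S59L on OMA1+/-, 7 of 12 for S59L on OMA1-/- and 6 of 12 for G58R on OMA1-/- (median differences -0.53, -0.76 and -0.43), and endothelial markers for 7, 5 and 6 of 7 genes in the same order (medians -1.43, -0.83 and -1.26). Macrophage markers were called higher for 8, 8 and 5 of 9 genes (medians 2.32, 2.15 and 1.27), with list means of 11.38 to 12.32 in C10 S59L OMA1+/- hearts against 8.93 to 9.502 in C10 WT OMA1+/- hearts at 20 weeks. Of 9 pericyte and smooth muscle markers, 1 was called higher and 2 lower (Rgs5 and Notch3) for S59L on OMA1+/-. For S59L on OMA1-/- 2 were called higher and 3 lower (Rgs5, Notch3 and Pdgfrb), and for G58R on OMA1-/- 1 higher and 0 lower. None of these lists had a call for G58R on OMA1+/-. Their part in the differences of the channel genes, the disc genes and the other genes described below was not tested. Atrial and fat markers varied widely between hearts. The mean of 6 atrial markers (Myl7, Myl4, Sln, Bmp10, Dkk3 and Stard10) ran over 8.90 to 14.35 in C10 S59L OMA1+/-, 11.09 to 16.96 in C10 S59L OMA1-/-, 7.03 to 9.45 in C10 WT OMA1+/- and 7.30 to 13.05 in C10 WT OMA1-/- hearts at 20 weeks. The C10 S59L and C10 WT ranges overlapped on both OMA1 backgrounds. Of the 6 markers Bmp10 and Dkk3 were called higher for S59L, on both OMA1 backgrounds, while the other 4 did not pass the test. The mean of 6 fat markers exceeded 9.5 in 7 hearts, namely C10 G58R OMA1-/- replicate 1, C10 WT OMA1+/- replicates 1, 2 and 3 at 14 weeks, C10 S59L OMA1+/- replicate 1 and C10 S59L OMA1-/- replicates 1 and 2. Because whole tissue was measured, fewer cells of a type and less RNA per cell cannot be told apart.

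Of the 9 genes, 8 had a mean above background. Hcn4 averaged 5.40 over all hearts, below it, and is treated apart. In the order of the 8 group means of each gene, every group overlapped its neighbour in range.

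**Figure D1:**
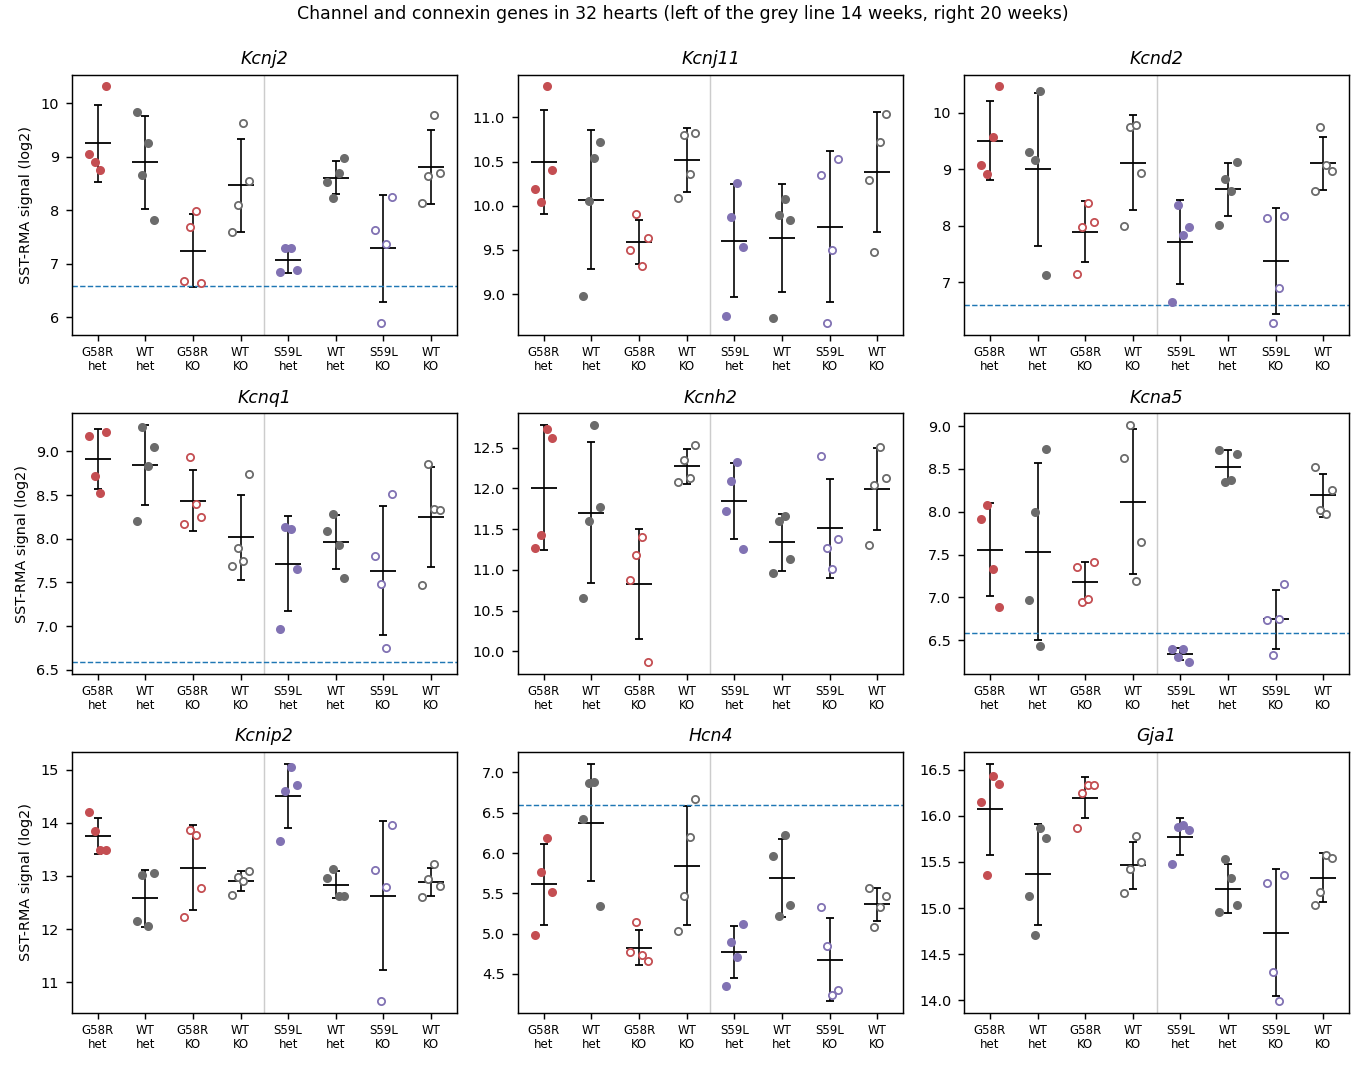
Log2 SST-RMA signal of the 9 genes in each heart (points), with the mean and SD of each group of 4 (black). Red is C10 G58R, purple C10 S59L and grey C10 WT, filled points are OMA1+/- (het) and open points OMA1-/- (KO), and the dashed blue line is the background of 6.59. The 4 C10 S59L OMA1+/- hearts sit at 6.25 to 6.40 for Kcna5, below every other heart but C10 S59L OMA1-/- replicate 2.

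The S59L mutation came with the clearest changes. In OMA1+/- hearts, Kcna5 and Kcnj2 fell and Kcnip2 rose, with 4 of 9 genes called where 36.5% of all genes were. In OMA1-/- hearts Kcna5, Kcnj2 and Kcnd2 fell, 3 of 9 where 29.8% of all genes were called. For G58R in OMA1-/- hearts, Kcnh2 and Kcnj11 were lower and Gja1 higher than in WT, with 4 of 9 called against 33.6% of all genes. In OMA1+/- hearts 0 of 9 were called for G58R, where 1.98% of all genes were. An unadjusted p under 0.05 was reached there by 3 of the 9 and by 3476 of all 19505 genes. The fourth call in the S59L OMA1+/- and G58R OMA1-/- comparisons was Hcn4, at or below background. These shares are close to those of the genes at large, which makes the counts no result about the 9 genes as a set. The promoters of Kcnj2, Kcna5 and Kcnip2, the 3 genes with the largest S59L differences in OMA1+/- hearts, are shown because their signals moved in opposite directions in the same hearts. Each line gives the 250 bases before the start of the gene, 5′ to 3′ on the gene's strand, from RefSeq on GRCm38.p6, with matches to 5 searched motifs in capitals.
Kcnj2 (chr11:111065914-111066163, plus strand): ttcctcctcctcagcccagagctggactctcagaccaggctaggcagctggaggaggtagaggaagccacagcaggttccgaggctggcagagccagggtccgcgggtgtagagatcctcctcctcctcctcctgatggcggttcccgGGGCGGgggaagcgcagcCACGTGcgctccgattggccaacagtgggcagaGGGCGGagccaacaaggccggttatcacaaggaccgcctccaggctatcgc
Kcna5 (chr6:126535556-126535805, minus strand): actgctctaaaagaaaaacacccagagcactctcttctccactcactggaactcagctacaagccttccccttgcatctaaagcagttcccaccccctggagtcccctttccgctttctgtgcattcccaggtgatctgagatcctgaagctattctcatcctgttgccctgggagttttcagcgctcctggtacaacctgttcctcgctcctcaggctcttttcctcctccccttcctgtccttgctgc
Kcnip2 (chr19:45816064-45816313, minus strand): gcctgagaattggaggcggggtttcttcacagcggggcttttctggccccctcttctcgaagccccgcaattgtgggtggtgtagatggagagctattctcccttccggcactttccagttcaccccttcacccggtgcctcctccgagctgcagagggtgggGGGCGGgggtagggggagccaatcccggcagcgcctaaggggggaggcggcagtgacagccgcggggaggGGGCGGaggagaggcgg

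The 5 motifs, searched on both strands, were the GC box GGGCGG, the TATA box TATAAA, the GATA factor motif AGATAA, the E-box CACGTG and the composite motif of C/EBP and ATF factors TGATGNAA. Kcnj2 had 2 GC boxes and an E-box, Kcnip2 had 2 GC boxes, and none of the 5 was found in the Kcna5 window. Over all 32851 promoters of that length, 32.7% held the GC box, 12.4% the TATA box, 9.99% the GATA motif, 6.02% the E-box and 3.45% the C/EBP and ATF motif. The G and C content was 65.6% for Kcnj2, 53.2% for Kcna5 and 66.8% for Kcnip2. Promoters of 7 of the 9 genes were in the table, and Kcnj11 and Kcnq1 were not among them. A match describes the letters only.

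Kcnj2 encodes Kir2.1, the inward rectifier that stabilizes the resting potential of heart muscle. Its signals were 6.85, 7.30, 7.29 and 6.89 in C10 S59L OMA1+/- hearts, against 8.53, 8.24, 8.69 and 8.97 in C10 WT OMA1+/- hearts. All 4 mutant hearts lay below all 4 WT hearts, and the difference of -1.53 ± 0.40 (standard error) corresponded to 0.347 times the WT level (limma adjusted p = 0.00657). In this comparison 37.9% of all genes did not overlap between the groups. On the OMA1-/- background, C10 S59L hearts had 7.64, 5.90, 7.37 and 8.25, against 8.14, 8.65, 9.78 and 8.70 in C10 WT hearts. Their ranges overlapped at 1 heart, replicate 4 of the mutant, and the difference was again -1.53 ± 0.40 (limma adjusted p = 0.00818).

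Both Kcnj2 calls in S59L hearts were lost with atrial markers in the fit. With the atrial marker mean as a covariate, the difference shrank to -0.85 in OMA1+/- hearts (limma adjusted p = 0.122) and to -0.90 in OMA1-/- hearts (limma adjusted p = 0.107). On the OMA1-/- background the call was also lost with the fat marker mean as a covariate (-0.99, adjusted p = 0.0671) and without the 7 hearts of high fat markers (-1.01, adjusted p = 0.0501). The atrial mean itself had a median of 13.08 in C10 S59L and 7.475 in C10 WT hearts on OMA1+/-, and of 14.27 and 9.73 on OMA1-/-. A covariate that differs by genotype takes up part of the mutation difference. The part of atrial and fat tissue in the Kcnj2 differences was not tested. Over the 16 hearts at 20 weeks, which pool the 4 groups, the Pearson r of Kcnj2 with the atrial mean was -0.741 and with the fat mean -0.648. Over the 16 hearts at 14 weeks the sign was the opposite, with r of 0.453 and 0.288.

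At 14 weeks, Kcnj2 was the only gene of the 9 called between OMA1-/- and OMA1+/- hearts. C10 G58R OMA1-/- hearts had 6.69, 7.69, 7.99 and 6.64, against 9.05, 8.90, 8.76 and 10.32 in C10 G58R OMA1+/- hearts, with no overlap. The difference was -2.01 ± 0.47, or 0.249 times the OMA1+/- level (limma adjusted p = 0.0191), where 4.49% of all genes were called and 11% did not overlap. The call was lost without C10 G58R OMA1+/- replicate 4 (-1.65, adjusted p = 0.0789) and without C10 G58R OMA1-/- replicate 1 (-1.82, adjusted p = 0.0756) or 4 (-1.80, adjusted p = 0.0613). Between the same knockouts and C10 WT OMA1-/- hearts, which had 7.59, 8.10, 9.64 and 8.55, the difference was -1.22 ± 0.47 and not called (limma adjusted p = 0.0536). It was called in 7 of 12 alternatives (adjusted p = 0.0182 to 0.0472) and without any of C10 G58R OMA1-/- replicate 3, C10 WT OMA1-/- replicate 1, C10 G58R OMA1+/- replicate 4 or C10 WT OMA1+/- replicates 1 and 4 (adjusted p = 0.0314 to 0.0432). In OMA1+/- hearts Kcnj2 averaged 9.26 ± 0.72 in C10 G58R and 8.90 ± 0.86 in C10 WT hearts (SD, n = 4 each). That difference of 0.36 ± 0.47 was not called (limma adjusted p = 0.730). Over the 12 alternatives it ran from 0.23 to 1.44 and was called in 0 of them. The interaction of G58R and OMA1 loss was -1.58 ± 0.67 and not called (limma adjusted p = 0.210).

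Kcnj11 encodes Kir6.2, the pore of the channel that opens when ATP runs low. C10 G58R OMA1-/- hearts had 9.499, 9.91, 9.32 and 9.63, against 10.08, 10.80, 10.36 and 10.83 in C10 WT OMA1-/- hearts. Every mutant value was below every WT value, and the difference of -0.93 ± 0.34, or 0.525 times the WT level, was called (limma adjusted p = 0.0404), and 36.3% of all genes did not overlap in this comparison. That call sat close to the threshold: it was lost with sex as a covariate (adjusted p = 0.0544), with all 32 arrays in the fit (adjusted p = 0.0782) and when any of C10 WT OMA1-/- replicates 2, 3 and 4 or C10 G58R OMA1-/- replicates 1, 3 and 4 was left out (adjusted p = 0.0584 to 0.0989). The same C10 G58R OMA1-/- hearts did not overlap the C10 G58R OMA1+/- hearts, which had 10.19, 10.04, 11.35 and 10.41, and the difference of -0.91 ± 0.34 was not called (limma adjusted p = 0.157). S59L left it at 9.60 ± 0.64 in C10 S59L OMA1+/- and 9.64 ± 0.61 in C10 WT OMA1+/- hearts, and at 9.76 ± 0.85 in C10 S59L OMA1-/- and 10.38 ± 0.68 in C10 WT OMA1-/- hearts (SD, n = 4 each), with no call.

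Among the partners of these inward rectifiers, Abcc9, the sulfonylurea receptor SUR2 that assembles with Kir6 pores, was lower in 3 of the 4 comparisons of mutant with WT. It averaged 13.13 ± 0.77 in C10 S59L and 14.75 ± 0.24 in C10 WT hearts on OMA1+/- (-1.62 ± 0.37, adjusted p = 0.00279), 12.22 ± 0.85 in C10 S59L and 14.67 ± 0.14 in C10 WT hearts on OMA1-/- (-2.45 ± 0.37, adjusted p = 0.000147), and 13.73 ± 0.31 in C10 G58R and 14.76 ± 0.26 in C10 WT hearts on OMA1-/- (-1.02 ± 0.24, adjusted p = 0.00317). Kcnj3, an acetylcholine-activated channel of atrium, was lower in C10 G58R OMA1-/- hearts, with a difference of -3.22 ± 0.79 from C10 WT OMA1-/- hearts (adjusted p = 0.00431) and of -2.96 ± 0.79 from C10 G58R OMA1+/- hearts (adjusted p = 0.0371). Of the 8 genes in the list of other inward rectifiers and their partners, 1 was called higher and 2 lower for G58R on OMA1-/- (33.6% of all genes called), 1 higher and 1 lower for S59L on OMA1+/- (36.5%), 0 higher and 3 lower for S59L on OMA1-/- (29.8%) and 1 higher and 2 lower for OMA1 loss in G58R hearts (4.49%). The gene called higher in both G58R comparisons was Kcnj4, an inward rectifier below background in both groups each time, where values have no reliable order, and Kcnj14 was in the same position for S59L on OMA1-/-. Kcnj5, the partner of Kcnj3 in the atrial channel, was the other gene lower with OMA1 loss, at 10.55 ± 0.68 in C10 G58R OMA1-/- and 11.90 ± 0.32 in C10 G58R OMA1+/- hearts (-1.35 ± 0.38, adjusted p = 0.0468). The mean of the 6 atrial markers had limits of 9.71 and 13.96 among these knockouts. Its limits were 11.11 and 15.95 with C10 G58R OMA1+/-, and 10.54 and 15.16 with C10 WT OMA1-/-, so the ranges overlapped. With Nppa added to the 6, the median marker difference was -1.755 for OMA1 loss and -0.766 for G58R on OMA1-/-, with 0 called. The part of atrial tissue in the Kcnj3 and Kcnj5 differences was not tested.

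Kcnd2 encodes Kv4.2, the pore of the fast transient outward current, which in mouse ventricle drives early repolarization. C10 S59L OMA1-/- hearts had 8.13, 6.28, 6.90 and 8.17, against 8.62, 9.75, 9.08 and 8.97 in C10 WT OMA1-/- hearts. The groups did not overlap, as was true of 26% of all genes, and the difference was -1.73 ± 0.42, or 0.301 times the WT level (limma adjusted p = 0.00561). With the atrial marker mean as a covariate it was -1.24 and no longer called (adjusted p = 0.0577). As for Kcnj2, that covariate differed by genotype, and the part of atrial tissue was not tested. On OMA1+/- the difference was -0.94 ± 0.42 and not called (limma adjusted p = 0.0903, and 0.0285 with quantile normalization and 0.0429 with only the groups compared), with 6.65, 8.37, 7.83 and 7.97 in C10 S59L hearts and 8.01, 8.82, 8.61 and 9.12 in C10 WT hearts.

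In the G58R cohort, Kcnd2 had 7.14, 7.97, 8.41 and 8.06 in C10 G58R OMA1-/- hearts, against 9.08, 8.92, 9.56 and 10.47 in C10 G58R OMA1+/- hearts. The 4 knockouts lay below the 4 OMA1+/- hearts, and the difference of -1.61 ± 0.54 was not called (limma adjusted p = 0.111). It was called with only the groups compared (adjusted p = 0.0193), with array weights (adjusted p = 0.0176) and without C10 WT OMA1+/- replicate 4 (adjusted p = 0.0225), a heart with a Kcnd2 signal of 7.13 beside 9.16 to 10.39 in its group. C10 WT OMA1-/- hearts had 7.998, 9.75, 9.78 and 8.93, and the G58R difference on OMA1-/- was -1.22 ± 0.54 and not called (limma adjusted p = 0.0883). It was called in 3 of 12 alternatives (adjusted p = 0.0162 to 0.0444) and without C10 WT OMA1-/- replicate 1 (adjusted p = 0.042) or C10 WT OMA1+/- replicate 4 (adjusted p = 0.0252). On OMA1+/- the G58R difference was 0.51 ± 0.54 (limma adjusted p = 0.654), and it was 2.38 and called (adjusted p = 0.0198) without the 7 hearts of high fat markers, a fit whose 1 remaining C10 WT OMA1+/- heart is replicate 4. The signals of Kcnd2 and Kcnj2 ran together over the hearts, with a Pearson r of 0.821 over the 16 hearts at 14 weeks and 0.826 over the 16 hearts at 20 weeks, a description that pools the 4 groups of a cohort.

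Kcnip2 encodes KChIP2, the cytoplasmic subunit that brings Kv4 channels to the membrane. It rose in C10 S59L OMA1+/- hearts, at 13.65, 14.60, 15.05 and 14.72, against 12.96, 13.14, 12.62 and 12.62 in C10 WT OMA1+/- hearts. All 4 mutant hearts were above all 4 WT hearts, and the difference was 1.67 ± 0.48, or 3.18-fold (limma adjusted p = 0.0118). The call was kept in every one of the alternatives run for it (adjusted p up to 0.049). In C10 G58R OMA1+/- hearts the 4 values of 14.21, 13.84, 13.50 and 13.48 were also above the 12.16, 13.03, 12.06 and 13.06 of C10 WT OMA1+/- hearts, without overlap, as for 7.87% of all genes. That difference of 1.18 ± 0.33, or 2.27-fold, was not called (limma adjusted p = 0.0675). It was called without C10 G58R OMA1-/- replicate 1 (adjusted p = 0.0396) and was 0.70 ± 0.39 without the 7 hearts of high fat markers, 3 of which are C10 WT OMA1+/- hearts.

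On the OMA1-/- background Kcnip2 was spread out in C10 S59L hearts, at 13.12, 10.65, 12.79 and 13.95, around the 12.60, 12.93, 13.23 and 12.81 of C10 WT hearts. The difference of -0.27 ± 0.48 was not called (limma adjusted p = 0.701). Against C10 S59L OMA1+/- hearts the knockouts differed by -1.88 ± 0.48, which was not called (limma adjusted p = 0.0799), in a comparison where 0.846% of all genes were called. It was called with all 32 arrays in 1 fit (adjusted p = 0.0194), with array weights (adjusted p = 0.0239) and without C10 S59L OMA1-/- replicate 4 (-2.32, adjusted p = 0.0148). Replicate 2, the heart at 10.65, also had the lowest cardiomyocyte marker mean of all hearts (16.02), the highest lymphocyte marker mean (8.24, beside 4.58 to 6.30 in every other heart) and the highest fat and atrial marker means of the cohort, and their part in its Kcnip2 signal was not tested. Without the 7 hearts of high fat markers, this heart among them, the difference was -1.42 and was called (adjusted p = 0.0311). The interaction of S59L and OMA1 loss was -1.94 ± 0.68 and not called (limma adjusted p = 0.414).

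Kcna5 encodes Kv1.5, the ultrarapid delayed rectifier, which is used in both chambers of the mouse heart and mainly in the atria of humans. It had the smallest p of the 9 genes. C10 S59L OMA1+/- hearts had 6.40, 6.31, 6.40 and 6.25, all below background, against 8.72, 8.35, 8.37 and 8.68 in C10 WT OMA1+/- hearts. The mutant level is therefore only a bound, at least 3.83-fold lower than WT, and the fitted difference was -2.19 ± 0.20 (limma adjusted p = 4.21e-07). On the OMA1-/- background C10 S59L hearts had 6.73, 6.33, 6.75 and 7.16, against 8.53, 8.02, 7.98 and 8.25 in C10 WT hearts, again without overlap. The difference there was -1.45 ± 0.20, or 0.366 times the WT level (limma adjusted p = 5.16e-05). Both calls were kept in every alternative run, including the atrial covariate, the fat covariate and each heart left out.

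Over the 16 hearts at 20 weeks, which pool the 4 groups, the Pearson r of Kcna5 with the atrial mean was -0.657. In the G58R cohort Kcna5 overlapped between groups: 7.92, 8.08, 7.34 and 6.89 in C10 G58R OMA1+/- hearts against 6.97, 7.996, 6.43 and 8.74 in C10 WT OMA1+/- hearts, and 7.36, 6.95, 6.98 and 7.41 in C10 G58R OMA1-/- hearts against 8.63, 9.01, 7.20 and 7.64 in C10 WT OMA1-/- hearts. Neither difference was called (0.03 ± 0.44, adjusted p = 0.985, and -0.94 ± 0.44, adjusted p = 0.105), and the OMA1-/- difference was called in 3 of 12 alternatives (adjusted p = 0.039 to 0.0442) and without C10 WT OMA1-/- replicate 3 (-1.25, adjusted p = 0.0454). The G58R effect minus the S59L effect on OMA1+/- was 2.21 ± 0.51 for Kcna5 (limma adjusted p = 0.00566 over 32 arrays, 8.33% of all genes called), the only such difference called among the 9 genes. Its size is a fitted value, since the C10 S59L OMA1+/- level is only a bound. It was lost without the 7 hearts of high fat markers (1.03, adjusted p = 0.442), a fit that leaves 1 C10 WT OMA1+/- heart at 14 weeks. For Kcnj2 the same difference was 1.89 and not called, and it was called in 4 of 10 alternatives (adjusted p = 0.0397 to 0.0488) and without C10 WT OMA1+/- replicate 1 at 14 weeks (adjusted p = 0.0401) or C10 S59L OMA1-/- replicate 2 (adjusted p = 0.0406). For Kcna5 the difference of effects on OMA1-/- was 0.50 ± 0.51 (limma adjusted p = 0.782). On that background 0 of the 9 genes were called, against 0.933% of all genes. An unadjusted p under 0.05 was reached there by 2 of the 9, Gja1 and Kcnq1, and by 2304 of all 19505 genes.

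**Figure D2:**
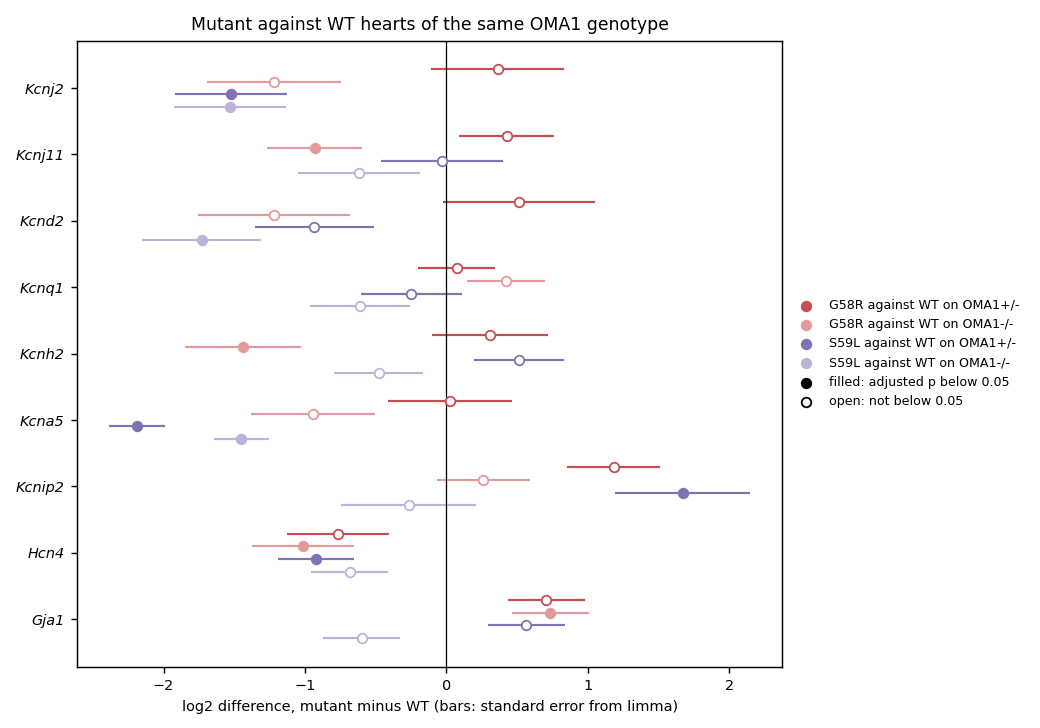
Log2 difference of mutant minus WT hearts for the 9 genes (points, bars the standard error from limma), in red for C10 G58R and purple for C10 S59L, darker on OMA1+/- and lighter on OMA1-/-, with filled points for calls at an adjusted p below 0.05. Kcna5 in C10 S59L OMA1+/- hearts lies farthest from 0, at -2.19, and Kcnip2 in the same hearts lies farthest to the right, at 1.67.

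Kcnh2 and Kcnq1 encode the pores of the rapid and slow delayed rectifiers, which carry a smaller part of repolarization in adult mice than in humans. Kcnh2 was lower in C10 G58R OMA1-/- hearts, at 10.88, 11.18, 11.40 and 9.87, than in C10 WT OMA1-/- hearts, at 12.07, 12.35, 12.13 and 12.54. The groups did not overlap, and the difference of -1.44 ± 0.41, or 0.369 times the WT level, was called (limma adjusted p = 0.0118), with no loss in any alternative run and no heart that decided it. In OMA1+/- hearts it was 0.31 ± 0.41 (limma adjusted p = 0.740), with 11.27, 11.43, 12.72 and 12.62 in C10 G58R and 10.66, 11.61, 12.78 and 11.77 in C10 WT hearts. Its interaction of G58R and OMA1 loss, -1.74 ± 0.58, had the smallest p of the 9 genes but was not called (limma adjusted p = 0.111, and 0.0359 with array weights). No interaction with G58R was called among the 9, where 3.13% of all genes were called. An unadjusted p under 0.05 was reached by 4 of the 9 genes, Kcnh2, Kcnj11, Kcnj2 and Kcnd2, and by 3580 of all 19505 genes. S59L left Kcnh2 without a call, at 0.51 ± 0.32 on OMA1+/- (adjusted p = 0.210) and -0.48 ± 0.32 on OMA1-/- (adjusted p = 0.262).

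Kcnq1 was not called in any of the 12 comparisons. Group means ran from 7.64 ± 0.73 in C10 S59L OMA1-/- hearts to 8.91 ± 0.35 in C10 G58R OMA1+/- hearts (SD, n = 4 each). Its largest difference among the 8 pairwise comparisons fitted was between C10 WT OMA1-/- and C10 WT OMA1+/- hearts at 14 weeks, with 7.68, 7.89, 7.75 and 8.74 in OMA1-/- hearts against 8.21, 9.27, 8.83 and 9.05 in OMA1+/- hearts (-0.82 ± 0.28, limma adjusted p = 0.324). Between those WT groups 0% of all genes were called, although 2276 had an unadjusted p under 0.05.

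Gja1 encodes connexin 43, the main gap junction protein of ventricular muscle. C10 G58R OMA1-/- hearts had 15.87, 16.25, 16.33 and 16.34, against 15.16, 15.42, 15.78 and 15.50 in C10 WT OMA1-/- hearts. Every mutant heart was above every WT heart, and the difference of 0.74 ± 0.27, or 1.66-fold, was called (limma adjusted p = 0.0432). The call was lost after quantile normalization (0.38, adjusted p = 0.372) and when any of C10 G58R OMA1-/- replicates 2, 3 and 4, C10 WT OMA1-/- replicates 1, 2 and 4 or C10 G58R OMA1+/- replicate 1 was left out (adjusted p = 0.0509 to 0.121). In OMA1+/- hearts the difference was 0.71 ± 0.27 and not called (limma adjusted p = 0.181), with 16.15, 15.36, 16.43 and 16.34 in C10 G58R and 15.13, 14.71, 15.87 and 15.76 in C10 WT hearts.

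In S59L hearts, Gja1 had 15.28, 14.30, 13.99 and 15.36 on OMA1-/-, against 15.48, 15.88, 15.90 and 15.84 on OMA1+/-. All 4 knockouts were below all 4 OMA1+/- hearts, as for 5.27% of all genes, and the difference of -1.04 ± 0.27 was not called (limma adjusted p = 0.0921). It was called without C10 S59L OMA1-/- replicate 1 (-1.22, adjusted p = 0.0413) or 4 (-1.25, adjusted p = 0.0290), the hearts nearest to the OMA1+/- values. Against C10 WT hearts, Gja1 differed by 0.56 ± 0.27 on OMA1+/- (adjusted p = 0.113) and by -0.60 ± 0.27 on OMA1-/- (adjusted p = 0.106). The OMA1+/- difference was called in 2 of 12 alternatives (adjusted p = 0.0371 and 0.0497), and the OMA1-/- difference with quantile normalization (-1.05, adjusted p = 0.0042) and without C10 S59L OMA1-/- replicate 1 (adjusted p = 0.0499) or 4 (adjusted p = 0.0388). The interaction of S59L and OMA1 loss was -1.16 ± 0.39 (limma adjusted p = 0.376). None of the 9 interactions with S59L was called, and 0.0718% of all genes were. An unadjusted p under 0.05 was reached by 4 of the 9, Gja1, Kcnip2, Kcna5 and Kcnh2, and by 1584 of all 19505 genes.

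**Figure D3:**
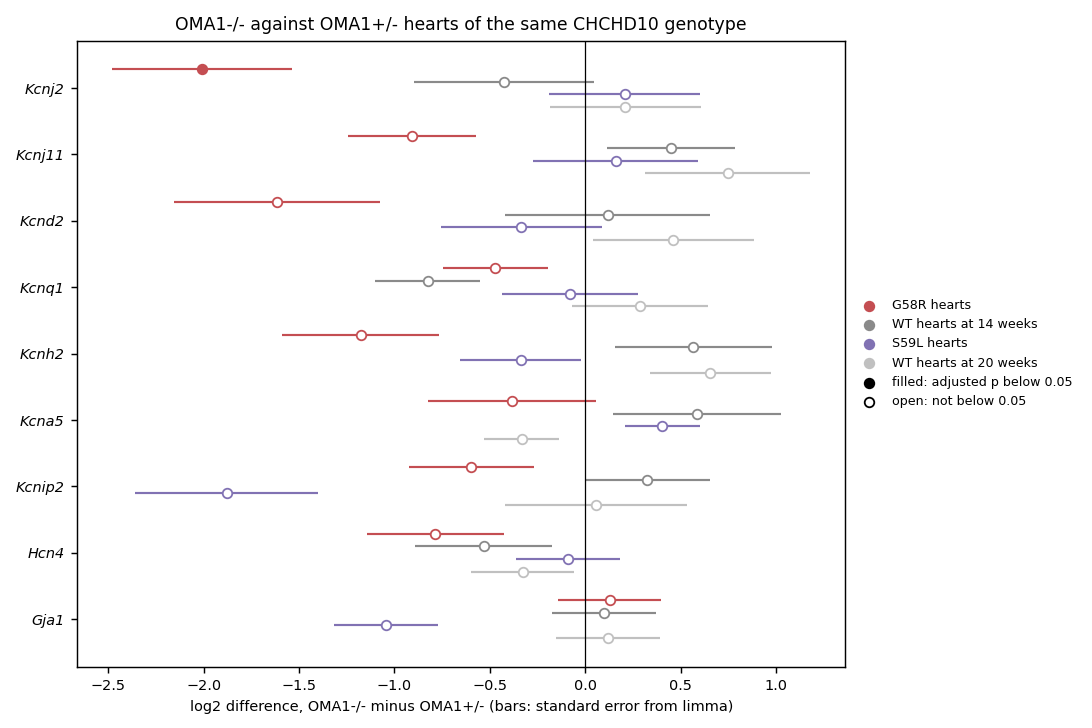
Log2 difference of OMA1-/- minus OMA1+/- hearts for the 9 genes (points, bars the standard error from limma), in red for C10 G58R, purple for C10 S59L, dark grey for C10 WT at 14 weeks and light grey for C10 WT at 20 weeks, with filled points for calls at an adjusted p below 0.05. Kcnj2 in C10 G58R hearts, at -2.01, is the only filled point.

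Hcn4 encodes the main pacemaker channel of the sinoatrial node, a small tissue of the right atrium. Its values were below background in all 4 hearts of 6 groups, in 3 of 4 C10 WT OMA1-/- hearts and in 2 of 4 C10 WT OMA1+/- hearts at 14 weeks, so no fold is given. The fit called it lower for G58R on OMA1-/- (adjusted p = 0.0371) and for S59L on OMA1+/- (adjusted p = 0.0136). Group means there were 4.83 ± 0.22 in C10 G58R OMA1-/- and 5.84 ± 0.73 in C10 WT OMA1-/- hearts, and 4.77 ± 0.32 in C10 S59L OMA1+/- and 5.69 ± 0.48 in C10 WT OMA1+/- hearts. Both calls were lost with quantile normalization (adjusted p = 0.149 for G58R and 0.104 for S59L). The G58R call was also lost without any of C10 G58R OMA1-/- replicates 1, 3 and 4 or C10 WT OMA1-/- replicates 3 and 4 (adjusted p = 0.0702 to 0.13), and the S59L call without C10 WT OMA1+/- replicate 3 (adjusted p = 0.0511). Another member of its family, Hcn2, was above background in every C10 G58R heart and below it in every C10 WT heart of that cohort. It averaged 7.13 ± 0.30 in C10 G58R and 5.43 ± 0.51 in C10 WT hearts on OMA1+/-, at least 1.45-fold higher (adjusted p = 0.00209), and 7.42 ± 0.36 in C10 G58R and 5.58 ± 0.42 in C10 WT hearts on OMA1-/-, at least 1.77-fold higher (adjusted p = 6.02e-05). Hcn2 was also called higher for S59L on OMA1+/- (limma adjusted p = 0.0371) but not on OMA1-/-. Its mean of 6.20 in C10 S59L OMA1+/- hearts was itself below background, so no fold is given.

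Counted over the 9 genes, Hcn4 included, 0 were called for G58R on OMA1+/-, 1 higher and 3 lower for G58R on OMA1-/- (18.3% of all genes were higher and 15.3% lower), 1 higher and 3 lower for S59L on OMA1+/- (18.6% and 17.9%) and 0 higher and 3 lower for S59L on OMA1-/- (15.8% and 14%). OMA1 loss called 1 lower in G58R hearts (1.24% of all genes were lower), 0 in S59L hearts, 0 in WT hearts at 14 weeks and 0 in WT hearts at 20 weeks, where 0.00513% of all genes were called. In the WT hearts at 20 weeks none of the 9 had an unadjusted p under 0.05, and 1113 of all 19505 genes did. In WT hearts none of the 9 genes separated OMA1-/- from OMA1+/- without overlap, as 3.42% of all genes did at 14 weeks and 3.51% at 20 weeks. The median difference of the 9 was 0.36 for G58R on OMA1+/- (all genes -0.03), -0.94 for G58R on OMA1-/- (all genes -0.10), -0.25 for S59L on OMA1+/- (all genes -0.15) and -0.62 for S59L on OMA1-/- (all genes -0.10). These comparisons share WT or mutant hearts in pairs, and the counts are not independent of each other.

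**Figure D4:**
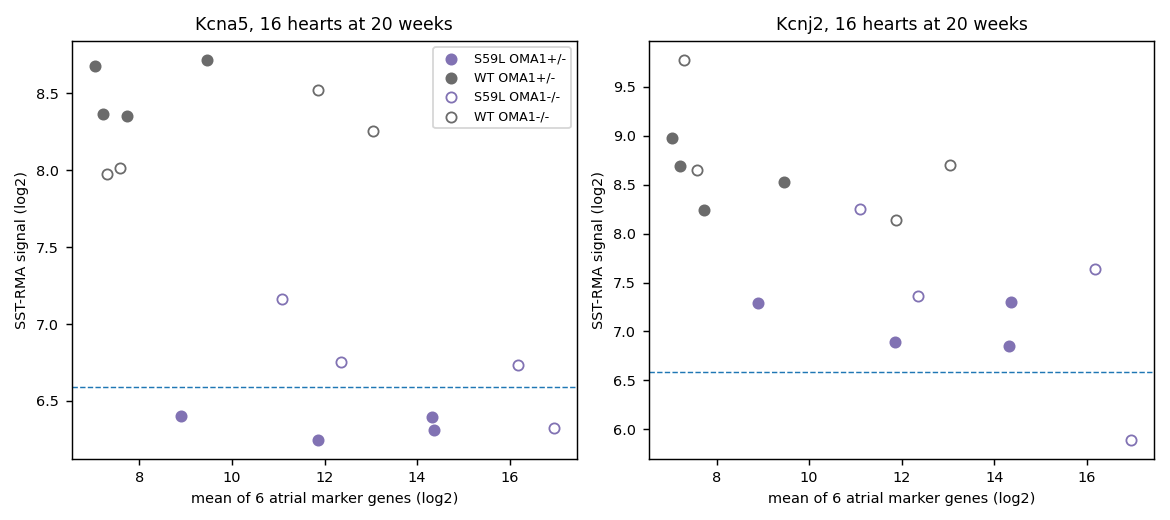
Log2 SST-RMA signal of Kcna5 (left) and Kcnj2 (right) against the mean log2 signal of 6 atrial marker genes in the 16 hearts at 20 weeks, in purple for C10 S59L and grey for C10 WT, filled for OMA1+/- and open for OMA1-/-. C10 S59L hearts reach atrial means of up to 16.96 and C10 WT hearts of up to 13.05, and over the 16 hearts r was -0.657 for Kcna5 and -0.741 for Kcnj2. Over the 16 hearts at 14 weeks, not shown, r was -0.466 for Kcna5 and 0.453 for Kcnj2.

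Of the sodium channel genes, 8 were analysed. Scn4b, the beta-4 subunit that tunes sodium channel gating, was lower in all 4 comparisons of mutant with WT. Scn4b had a mean below background in C10 G58R OMA1+/- and C10 S59L OMA1-/- hearts, so the sizes of its differences there are fitted values. It averaged 6.53 ± 0.12 in C10 G58R and 7.90 ± 0.53 in C10 WT hearts on OMA1+/- (-1.36 ± 0.23, adjusted p = 0.00306) and 7.30 ± 0.04 in C10 G58R and 8.28 ± 0.32 in C10 WT hearts on OMA1-/- (-0.97 ± 0.23, adjusted p = 0.0032). For S59L it averaged 6.77 ± 0.50 in C10 S59L and 9.08 ± 0.28 in C10 WT hearts on OMA1+/- (-2.31 ± 0.25, adjusted p = 2.83e-06) and 6.54 ± 0.41 in C10 S59L and 8.60 ± 0.12 in C10 WT hearts on OMA1-/- (-2.06 ± 0.25, adjusted p = 1.97e-05). Scn3b, the beta-3 subunit, was below background in every C10 WT heart at 20 weeks and averaged 7.33 ± 0.85 in C10 S59L OMA1-/- hearts, at least 1.67-fold higher (adjusted p = 0.00104). In all, 1 of the 8 was called for G58R on OMA1+/- (1.98% of all genes), 2 for G58R on OMA1-/- (33.6%), 6 for S59L on OMA1+/- (36.5%) and 3 for S59L on OMA1-/- (29.8%). Of these calls, 1 for G58R on OMA1-/- (Scn2b), 3 for S59L on OMA1+/- (Scn1a, Scn2b and Scn8a) and 1 for S59L on OMA1-/- (Scn2b) were of genes below background in both groups, which have no reliable order.

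Other potassium channel genes gave the following counts. Of 14 voltage-gated alpha subunits on the array, 5 were called for G58R on OMA1-/- (33.6% of all genes), 4 for S59L on OMA1+/- (36.5%) and 3 for S59L on OMA1-/- (29.8%), shares near or under those of all genes, and 3, 3 and 2 of these calls were of genes below background in both groups. Kcnv2, a silent subunit that modifies other Kv channels, had the smallest p of the list in each, and was below background in every heart of these mutant groups, at least 1.30-fold lower in C10 S59L OMA1-/- than in C10 WT OMA1-/- hearts (adjusted p = 3.1e-05). Kcnd3, the Kv4.3 pore and the only member of that list with a mean above background, was at 6.91 ± 0.31 in C10 G58R OMA1-/- and 7.83 ± 0.24 in C10 WT OMA1-/- hearts (-0.92 ± 0.29, adjusted p = 0.0196) and was not called for S59L. Among 11 two-pore and calcium-activated channels, 0 were called higher and 4 lower for G58R on OMA1-/- (33.6% of all genes called), 1 higher and 4 lower for S59L on OMA1+/- (36.5%) and 1 higher and 1 lower for S59L on OMA1-/- (29.8%), where Kcnk2, lower in the first 2 of these, was below background in both groups. Kcnn1, a small-conductance calcium-activated channel, was lower in all 3, at 9.14 ± 0.21 in C10 G58R OMA1-/- against 9.89 ± 0.23 in C10 WT OMA1-/- hearts (adjusted p = 0.0035), 9.02 ± 0.23 in C10 S59L OMA1+/- against 9.88 ± 0.31 in C10 WT OMA1+/- hearts (adjusted p = 0.0146) and 8.62 ± 0.32 in C10 S59L OMA1-/- against 9.69 ± 0.55 in C10 WT OMA1-/- hearts (adjusted p = 0.00505). Kcnn2, another channel of that family, was lower at 8.45 ± 0.27 in C10 G58R OMA1-/- hearts against 9.55 ± 0.49 in C10 WT OMA1-/- hearts (adjusted p = 0.00454), and at 7.79 ± 0.48 in C10 S59L OMA1+/- hearts against 8.99 ± 0.49 in C10 WT OMA1+/- hearts (adjusted p = 0.00503). None of the 13 auxiliary subunits had a mean above background. For G58R on OMA1-/- 2 were called higher and 0 lower (33.6% of all genes called), with Kcne3 below background in both groups. On each OMA1 background 1 was called higher and 1 lower for S59L (36.5% and 29.8%). The lower gene was Kcnip1, below background in every C10 S59L heart. It was at least 1.19-fold lower on OMA1+/- and 1.48-fold on OMA1-/- (limma adjusted p = 0.00959 and 0.00325). Kcne1, which slows the Kcnq1 channel, was below background in every C10 WT heart at 20 weeks and averaged 7.14 ± 0.94 in C10 S59L OMA1+/- hearts, at least 1.47-fold higher (adjusted p = 0.00949).

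Of 15 other connexins on the array, 2 had a mean above background, and these did not pass the test in any pairwise comparison. Of the 15, 4 were called for G58R on OMA1-/- (33.6% of all genes), 5 for S59L on OMA1+/- (36.5%) and 2 for S59L on OMA1-/- (29.8%), all lower, and 1, 2 and 2 of these calls were of genes below background in both groups. Gja5, a connexin of atrium and fast conducting fibres, differed by -0.71 ± 0.71 for G58R and -0.11 ± 0.59 for S59L on OMA1+/-. Gjc1, a connexin of the conduction system, differed by 0.17 ± 0.22 for G58R and 0.14 ± 0.35 for S59L on OMA1+/-. At the intercalated disc, where connexin 43 sits, Tjp1, the scaffold ZO-1 that binds its tail, was lower at 11.01 ± 0.20 in C10 G58R OMA1-/- against 12.68 ± 0.17 in C10 WT OMA1-/- hearts (-1.67 ± 0.20, adjusted p = 8.91e-06) and 10.85 ± 0.20 in C10 S59L OMA1+/- against 12.77 ± 0.18 in C10 WT OMA1+/- hearts (-1.93 ± 0.22, adjusted p = 6.06e-06). Cxadr, a cell adhesion molecule of the disc, was below background in every C10 WT OMA1-/- heart at 14 weeks and averaged 7.32 ± 0.37 in C10 G58R OMA1-/- hearts, at least 1.65-fold higher (adjusted p = 5.48e-05). Pkp2, plakophilin 2 of the desmosome, was higher at 10.90 ± 0.26 in C10 G58R OMA1-/- against 9.62 ± 0.35 in C10 WT OMA1-/- hearts (adjusted p = 0.000637). Of the 12 disc genes on the array, 2 rose and 2 fell for G58R on OMA1-/- (33.6% of all genes called), 1 rose and 1 fell for S59L on OMA1+/- (36.5%) and 0 rose and 1 fell for S59L on OMA1-/- (29.8%). For OMA1 loss in G58R hearts, where 4.49% of all genes were called, Cxadr and Pkp2 rose and Tjp1 and Ctnna3 fell (adjusted p = 0.00747 to 0.0468).

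The genes whose signals ran most like each of 7 members over the 32 hearts, after the mean of each cohort was removed, are given as a description (Kcnq1 was not called and Hcn4 was below background), since the hearts share groups, tissue content and array. Kcnj2 ran with Fbxw7 (r = 0.875), Mrgprh (0.846) and Tmem65 (0.841), and Kcnd2 with Mrgprh (0.823), Asb14 (0.795) and Lrtm1 (0.795). Kcnj11 ran with Rai2 (0.796), Myocd (0.791), the cardiac coactivator myocardin, and Cacna1c (0.786), the pore of the L-type calcium channel. Kcna5 ran with Urm1 (0.878), Pfdn2 (0.860) and Tcim (0.859), and Kcnip2 with Phyhd1 (0.849), Cdh2 (0.824), the cadherin of the intercalated disc, and Plpp7 (0.771). Kcnh2 ran with Camk2g (0.809), Rreb1 (0.785) and Adgrl2 (0.774), of which Adgrl2 had an r of 0.919 at 14 weeks and 0.386 at 20 weeks, and Gja1 with Hdhd2 (0.809), Pwp2 (0.805) and Adsl (0.790).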

How the data were processed

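Each of 32 hearts was hybridized to its own Clariom S Mouse array (Affymetrix). The authors summarized the arrays to log2 gene-level values by SST-RMA (background correction, normalization and probe summary) in Transcriptome Analysis Console 4.0.1, and deposited them as 1 log2 table. No source used here says whether all arrays were normalized together. The number of arrays limits the precision.

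Of 28846 probe sets, 19572 carried 1 gene symbol, and the probe set of highest mean was kept for each of 19505 genes. Groups came from the sample titles. Each cohort was fitted with limma 3.58.1 in R 4.3.3 as group means over 16 arrays, with Benjamini-Hochberg adjustment over 19505 genes. Differences between cohorts used 32 arrays. Each array is a separate animal per the labels. The fit was tested on simulated data. The rule for other lists was up to 5 called genes of smallest p per list and comparison. The text names some of these and gives counts for most comparisons. Genes left unnamed include some above background, such as Gata4 and Cacnb2. By correlation the rule took the 3 most similar genes of each called member above background. The members, lists and comparisons were chosen with earlier results of these data known. Alternatives were sex, array weights, trended robust variance, quantile normalization, a background filter, the groups compared, all arrays in 1 fit, a replicate block, tissue covariates and each heart left out.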

Additional observations from a re-analysis of the deposited data

Results flagged for a closer look

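Gja1 read 15.48 in C10 S59L OMA1+/- replicate 1, whose gap to the other 3 hearts of that group (15.84 to 15.90) took up most of the group's range. This heart also had the only fat marker mean above 9.5 in its group (12.35). Its part in the Gja1 value was not tested. It was the only such value among 72 sets of 4 hearts, and chance flags about 1 in 20 sets. The G58R effect minus the S59L effect on Kcna5 in OMA1+/- hearts, 2.21 ± 0.51 on the log2 scale (limma adjusted p = 0.00566), stood out because the effects of the mutations differed by a test of the difference itself, with age and mutation not separable. Its size is a fitted value, since all 4 C10 S59L OMA1+/- values are below background, and the call was lost without the 7 hearts of high fat markers (1.03, adjusted p = 0.442).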

How the results depend on the processing

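Leaving out 1 heart at a time gave 0 to 1 called genes of the 9 for G58R on OMA1+/- (0 with all hearts), 1 to 6 for G58R on OMA1-/- (4), 0 to 2 for OMA1 loss in G58R hearts (1), 0 to 1 for the interaction of G58R and OMA1 loss (0), 3 to 4 for S59L on OMA1+/- (4), 3 to 5 for S59L on OMA1-/- (3) and 0 to 2 for OMA1 loss in S59L hearts (0). The difference of the G58R and S59L effects gave 1 to 2 on OMA1+/- (1) and 0 to 1 on OMA1-/- (0), and the remaining comparisons stayed at 0. The G58R on OMA1-/- count was lowest, at 1, without C10 G58R OMA1-/- replicate 4 or C10 WT OMA1-/- replicate 4. Fitting only the 2 groups compared gave 7 called genes for G58R on OMA1-/- and 2 for OMA1 loss in G58R hearts. Array weights gave 3 for OMA1 loss in G58R hearts, 2 for its interaction, 1 for OMA1 loss in S59L hearts and 2 for the difference of effects on OMA1+/-. Quantile normalization gave 5 for S59L on OMA1-/- and 2 for the difference of effects on OMA1+/-, and the background filter, which drops Hcn4, also gave 2 there. All 32 arrays in 1 fit gave 1 for OMA1 loss in S59L hearts. Leaving out the 7 hearts of high fat markers, chosen after seeing the data like the atrial covariate, gave 1 for G58R on OMA1+/-, 1 for OMA1 loss in S59L hearts and 2 for the difference of effects on OMA1+/-, with 1 C10 WT OMA1+/- heart left at 14 weeks. No called difference changed sign in any alternative run. Replicate numbers were not taken to pair the animals: in no comparison did all 4 same-numbered pairs correlate above 0.1 (r of -0.384 to 0.332), although 3 of 4 did for S59L on OMA1+/- and for OMA1 loss in S59L hearts, and with a replicate block the counts of the 9 genes were 0 for G58R on OMA1+/-, 4 for G58R on OMA1-/-, 1 for OMA1 loss in G58R hearts, 4 for S59L on OMA1+/-, 3 for S59L on OMA1-/- and 1 and 0 for the differences of effects, and the other counts were 0, so no count moved. The number of hearts limits what could be called, and values below 6.59 have no reliable order.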

Other observations

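Among transcription factors of the conduction system and heart chambers, Tbx20, a T-box factor of cardiac muscle, was higher in C10 S59L hearts, at 14.74 ± 0.26 against 12.12 ± 0.07 in C10 WT hearts on OMA1+/- (2.62 ± 0.24, limma adjusted p = 4.93e-07) and at 14.16 ± 0.42 in C10 S59L against 12.62 ± 0.45 in C10 WT hearts on OMA1-/- (1.54 ± 0.24, adjusted p = 0.000183). Hopx, a homeodomain protein linked to conduction, was lower, at 9.79 ± 0.46 in C10 S59L against 11.93 ± 0.09 in C10 WT hearts on OMA1+/- (-2.15 ± 0.37, adjusted p = 0.000282) and at 10.58 ± 0.96 in C10 S59L against 12.13 ± 0.50 in C10 WT hearts on OMA1-/- (-1.55 ± 0.37, adjusted p = 0.00494). Of 14 such factors, 4 were called higher and 1 lower for S59L on OMA1+/- (36.5% of all genes called), 1 higher and 3 lower for S59L on OMA1-/- (29.8%), 2 higher and 2 lower for G58R on OMA1-/- (33.6%), with Isl1, 1 of the lower, below background in both groups, and 0 for G58R on OMA1+/- (1.98%). Of 7 calcium channel subunits, 0 rose and 3 fell for S59L on OMA1+/- (17.9% of all genes were lower), for S59L on OMA1-/- (14%) and for G58R on OMA1-/- (15.3%). Cacna1g, a T-type pore, was below background in every C10 G58R OMA1-/- heart and at least 1.56-fold lower than in C10 WT OMA1-/- hearts (adjusted p = 0.011). Cacna1c, the pore of the L-type channel, was at 13.95 ± 0.37 in C10 G58R OMA1-/- and 15.11 ± 0.18 in C10 WT OMA1-/- hearts (-1.16 ± 0.38, adjusted p = 0.024). Of 8 sodium channel partners, 1 was called higher (Fgf13) for G58R on OMA1+/- (1.98% of all genes called). For G58R on OMA1-/-, 2 rose and 1 fell (33.6%). For S59L, 2 rose on OMA1+/- (36.5%), and 1 rose and 1 fell on OMA1-/- (29.8%). Fgf13 was lower with OMA1 loss in G58R hearts (limma adjusted p = 0.0308). Of 3 sodium pump and exchanger genes, 1 (Slc8a1) rose for G58R on OMA1+/-, 2 for G58R on OMA1-/- and 1 for S59L on OMA1+/-. These lists were chosen with earlier results of these data known.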
